A study of Homo sapiens with 12 samples.

Results

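The comparison described is that of the second EP300 hairpin with its control, 3 libraries labelled EP300 KD2 against 3 labelled NS2, taken by their column names from a series of 12 RNA-seq libraries. All cells were MCF10AT, an established human breast epithelial line of the MCF10A lineage that carries oncogenic HRas (G12V). The EP300 KD2 cells stably express an shRNA against EP300, and the NS2 cells a non-silencing shRNA. Both were transduced with lentiviral particles in the presence of polybrene, selected with puromycin at 1 µg/ml for 3 days and then returned to normal medium. That medium is DMEM/F12 with donor horse serum, epidermal growth factor, insulin, cholera toxin and hydrocortisone, so control and knockdown cells alike carried the oncogenic Ras and were grown with a receptor tyrosine kinase ligand and a cAMP-raising toxin. The remaining 6 libraries, EP300 KD1 and its control NS1, were made in the same way with another hairpin of each kind and are used here for contrast. The labels speak of corresponding controls without pairing them, and NS2 was paired with EP300 KD2 by its number. Nor do they state whether replicates were grown as separate cultures, so p-values rest on variation among libraries that could be purely technical. Of 29094 rows in the count table, 1 per RefSeq transcript accession, 13424 passed the filter on low counts and were tested, and each is called a gene.

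EP300 encodes p300, a lysine acetyltransferase that transcription factors bring to promoters and enhancers, where it acetylates histones and other proteins. CREBBP encodes its close relative CBP, which shares many of its partners. In stratified and glandular epithelia p300 works with lineage factors such as p63, GRHL, KLF and ETS proteins, and its best-known mark, acetylation of histone H3 at lysine 27, is a feature of active enhancers. MCF10A and its Ras-transformed derivative express both basal and luminal genes, and cells of this lineage can turn from an epithelial to a more mesenchymal gene programme.

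Several promoters are shown first because the genes they belong to moved as groups and because the windows printed differ in CpG count. Each is the 250 bases before the RefSeq start on GRCh38.p14, written from 5′ to 3′ on the gene's own strand. The first 3 belong to mitotic genes that rose with hairpin 2, and capitals mark TTTGAA (the CHR element, bound by MuvB complexes) and CCAAT (bound by NF-Y), each on either strand.
CDC20, chr1:43358731-43358980, plus strand: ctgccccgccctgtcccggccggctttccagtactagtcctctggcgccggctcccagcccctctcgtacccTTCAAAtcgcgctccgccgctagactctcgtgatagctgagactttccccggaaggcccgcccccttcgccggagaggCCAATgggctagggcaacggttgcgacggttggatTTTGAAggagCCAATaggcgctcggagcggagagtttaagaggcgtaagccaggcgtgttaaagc
DLGAP5, chr14:55191586-55191835, minus strand: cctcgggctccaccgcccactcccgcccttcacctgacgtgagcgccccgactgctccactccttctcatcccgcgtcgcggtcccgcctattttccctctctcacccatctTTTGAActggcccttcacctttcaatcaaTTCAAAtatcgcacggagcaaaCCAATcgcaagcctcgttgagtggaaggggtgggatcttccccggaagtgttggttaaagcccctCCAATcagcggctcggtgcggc
CCNF, chr16:2429197-2429446, plus strand: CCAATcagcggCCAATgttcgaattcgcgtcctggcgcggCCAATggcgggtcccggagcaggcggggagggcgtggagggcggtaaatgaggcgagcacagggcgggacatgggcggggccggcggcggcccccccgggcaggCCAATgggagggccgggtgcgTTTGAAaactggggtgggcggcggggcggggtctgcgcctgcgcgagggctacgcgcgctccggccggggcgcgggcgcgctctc
The next 3 belong to secretory or glandular genes that were lost with hairpin 2, and capitals mark only CpG. Promoters of widely expressed genes are dense in this dinucleotide and promoters of tissue-restricted genes are often poor in it. TTTGAA and CCAAT are not marked here, although AGR2 and GCNT3 hold TTTGAA on the other strand and TCN1 holds CCAAT. Among genes lower by at least 2-fold 10.9% of windows held TTTGAA and 31.2% CCAAT, against 8.78% and 35.2% of tested genes.
AGR2, chr7:16805000-16805249, minus strand: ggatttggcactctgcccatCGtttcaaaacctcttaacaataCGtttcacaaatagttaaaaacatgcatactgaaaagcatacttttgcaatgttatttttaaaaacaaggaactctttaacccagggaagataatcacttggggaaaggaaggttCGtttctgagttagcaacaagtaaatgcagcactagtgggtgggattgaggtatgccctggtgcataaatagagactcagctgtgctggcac
TCN1, chr11:59866488-59866737, minus strand: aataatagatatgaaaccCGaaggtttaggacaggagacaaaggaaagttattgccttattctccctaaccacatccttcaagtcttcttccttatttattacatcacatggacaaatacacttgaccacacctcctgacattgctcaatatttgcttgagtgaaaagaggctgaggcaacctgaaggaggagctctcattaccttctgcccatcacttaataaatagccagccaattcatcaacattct
GCNT3, chr15:59611533-59611782, plus strand: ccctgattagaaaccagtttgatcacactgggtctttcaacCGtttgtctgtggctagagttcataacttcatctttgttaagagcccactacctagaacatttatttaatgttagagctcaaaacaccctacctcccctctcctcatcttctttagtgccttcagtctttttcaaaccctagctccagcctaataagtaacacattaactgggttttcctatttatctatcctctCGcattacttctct
These 3 are CpG-poor picks: AGR2 had 3 CpGs in this window, TCN1 1 and GCNT3 2, whereas PPARGC1A, also lost, had 33. The counts compare with 23 in CDC20, 19 in DLGAP5 and 35 in CCNF.

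EP300 itself (NM_001429, GRCh38 chromosome 22, 41092592 to 41180077) was measured at 165, 180.3 and 177 CPM in NS2 and 95.1, 99.9 and 92.3 CPM in EP300 KD2. All 3 knockdown libraries lay below all 3 controls. The fitted log2 change was -0.86 ± 0.04 SE, adjusted p = 1.1e-13, which leaves 55% of the control level. In this and later sentences the value with its SE is the fitted log2 change of EP300 KD2 against NS2, and adjusted p is that of edgeR over all genes tested. The knockdown was partial at the level of RNA, and deeper than with hairpin 1, whose log2 change was -0.68 (adjusted p = 0.00488 for the difference, edgeR). CREBBP measured 101, 102 and 100.5 CPM in NS2 and 95.1, 102 and 93.7 CPM in EP300 KD2, and the groups overlapped (-0.06 ± 0.03 SE, adjusted p = 0.0916). In these bulk libraries fewer cells expressing a gene and less RNA per cell cannot be told apart.

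The 6 libraries held 31582157 to 40700951 counts and parted by group on a first principal component with 77.7% of their variance. The common biological coefficient of variation over all 12 libraries was 0.030, so small shifts passed the test. Of the genes tested 7762 were called (57.8%), 3744 higher (27.9%) and 4018 lower (29.9%), and in 7525 of the called genes (96.9%) no knockdown library overlapped a control library, as in 8518 of all genes tested (63.5%). Most shifts were small, with a median absolute log2 change of 0.31 among the called genes. Calls of at least 2-fold were fewer and leaned towards loss, with 396 genes higher (2.95%) and 689 lower (5.13%). That lean changed with abundance. Below a mean of 1 CPM (counts scaled to library size by TMM), 163 genes rose and 221 fell at least 2-fold, whereas at 100 CPM and above 8 rose and 45 fell. The split of all calls depended on the scaling, with 4630 higher and 3358 lower under upper-quartile factors and 4979 higher and 3144 lower under library totals, although these moved the median of all genes by only 0.05 and 0.07 on the log2 scale.

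**Figure D1:**
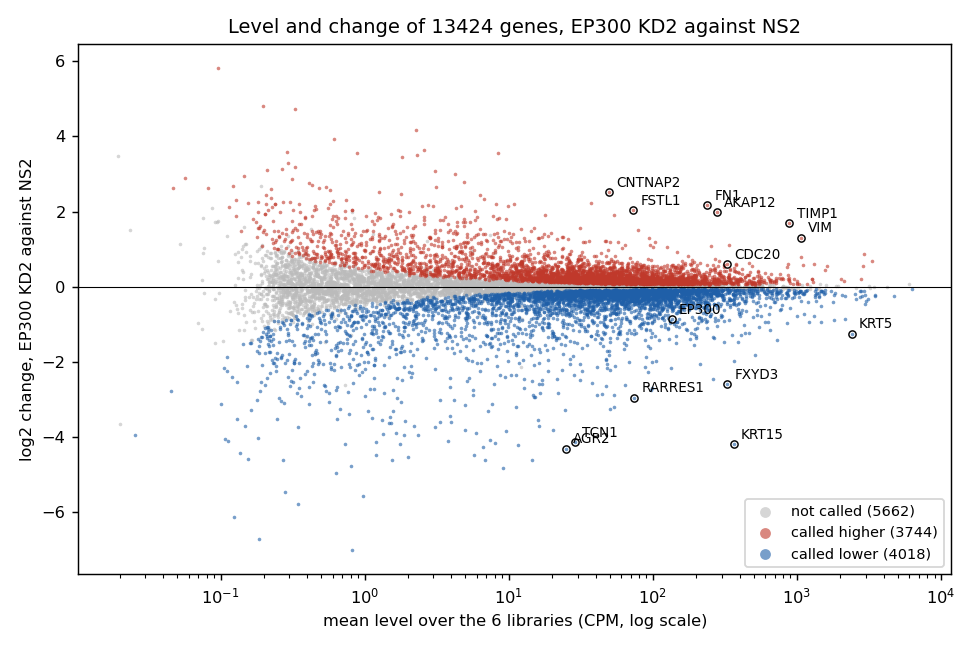
Each point is 1 of the 13424 genes; the x axis is its mean level over the 6 libraries in CPM on a log scale and the y axis the fitted log2 change of EP300 KD2 against NS2. Genes called higher are red (3744), genes called lower are blue (4018) and the rest are grey; at 100 CPM and above, 45 genes fell at least 2-fold and 8 rose as far.

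The labelled identity of the cells was visible in both groups. The summed level of 10 mammary epithelial markers (KRT5, KRT14, KRT17, KRT8, KRT18, EPCAM, CDH1, TP63, ITGA6 and ITGB4) ran from 8846 to 8963 CPM in NS2 and from 4713 to 4814 CPM in EP300 KD2. For other cell types, 10 fibroblast markers summed to 48.9 to 53.6 CPM in NS2 and 57.8 to 59.5 CPM in EP300 KD2, with COL1A2, COL3A1 and LUM at 0 in all 6 libraries. Leukocyte markers summed to 67.2 to 68.8 and 40.9 to 43.4 CPM, and endothelial markers to 38.6 to 40.6 and 6.40 to 7.04 CPM with CLDN5, ERG and EMCN at 0. The falls in these 2 sums came mainly from CD14 and PECAM1, while other members rose. Of 4 leukocyte markers tested 2 were called higher and 1 lower, and of 3 endothelial markers 1 higher and 1 lower. CD14, a co-receptor for bacterial lipopolysaccharide, measured 50.7, 45.7 and 49.5 CPM in NS2 and 15.8, 16.2 and 15.4 CPM in EP300 KD2, and PECAM1, an adhesion molecule of endothelium, 37.8, 38.2 and 40.1 CPM in NS2 and 5.78, 4.97 and 5.4 CPM in EP300 KD2. HEK293 and neural markers summed to 55.6 to 56.4 CPM in NS2 and 147 to 157 CPM in EP300 KD2 with INA, STMN2, LIN28B and PCSK1N at 0, and the neuronal tubulin TUBB3 made up most of the difference, at 40.3, 41.5 and 41.1 CPM in NS2 and 113, 121 and 113 CPM in EP300 KD2. The part of other cells in any gene group below was not tested.

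Counts of gene lists cover the members that passed the filter on low counts. Keratins build the intermediate filaments of epithelial cells. Of 8 basal and stress keratins tested, 8 fell and 0 rose, with a median log2 change of -1.59 against -0.002 over all genes tested. KRT5, the keratin of the basal layer, measured 3373, 3399.6 and 3349.8 CPM in NS2 and 1433, 1427 and 1378 CPM in EP300 KD2. Every knockdown library held less than every control (-1.26 ± 0.02 SE, adjusted p = 1.66e-19). KRT17, which epithelia induce under stress, measured 577, 601 and 585 CPM in NS2 and 149.8, 145 and 149 CPM in EP300 KD2 (-1.99 ± 0.03 SE, adjusted p = 2.46e-20). KRT16, another stress keratin, measured 20.4, 22.9 and 21.8 CPM in NS2 and 3.85, 3.68 and 4.26 CPM in EP300 KD2, a loss of 2.47 on the log2 scale. KRT15, at 684, 710.2 and 677 CPM in NS2 and 38.3, 38.6 and 36.2 CPM in EP300 KD2, lost most of its level with either hairpin (log2 change -4.19 and -4.21 with hairpins 2 and 1, adjusted p = 0.837 for the difference), whereas KRT5, KRT17 and KRT16 fell further with hairpin 2 by 0.55, 0.75 and 1.84, each called in the test of the difference. Against NS1 the log2 changes with hairpin 2 were -0.95, -2.26 and -2.18 for KRT5, KRT17 and KRT16. The differences between hairpins thus also carry that between NS1 and NS2. With hairpin 1, 5 of the 8 fell and 2 rose. KRT16 and KRT17 have closely similar sequences, so their counts may be shared. Among 6 simple and other keratins 4 fell and 0 rose: KRT80, KRT18, KRT19 and KRT13, of which KRT18 moved from 1531 to 1165 CPM (log2 change -0.39) and the rest by -0.91 to -2.91. A filter of 1 CPM on the mean left 2 of these 4.

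Hemidesmosomes tie keratin filaments to laminin through the integrin formed by ITGA6 and ITGB4. Of 14 hemidesmosome and laminin genes 8 fell and 3 rose with hairpin 2 (median -0.29), and 4 fell and 8 rose with hairpin 1 (median 0.13). ITGA6 measured 1276, 1267 and 1262 CPM in NS2 and 742, 735 and 747 CPM in EP300 KD2. It fell with hairpin 2 (-0.77 ± 0.02 SE, adjusted p = 6e-17) and rose slightly with hairpin 1 (0.09). ITGB4 measured 1362, 1438 and 1417 CPM in NS2 and 843, 881 and 808 CPM in EP300 KD2 (-0.74 ± 0.04 SE, adjusted p = 3.25e-12), and COL17A1, the transmembrane collagen of the same plaque, 285, 287 and 293 CPM in NS2 and 97.8, 99.3 and 97.4 CPM in EP300 KD2 (-1.55 ± 0.03 SE, adjusted p = 1.25e-18). The plakin DST fell from 1059 to 398 CPM. In the opposite direction LAMB1 rose from 406 to 506 CPM. The difference between the hairpins was called lower with hairpin 2 for 13 of the 14 and higher for 0, where 29.2% of all genes tested were called lower and 21.6% higher. Measured against NS1 instead of NS2, however, the median of this list was 0.00, with 7 members higher and 6 lower, and NS2 itself lay above NS1 by a median of 0.08.

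Desmosomes join neighbouring cells through desmosomal cadherins and plakins. Of 12 members 10 fell and 1 rose (median -0.55). DSG3, a desmosomal cadherin, measured 365, 382 and 369 CPM in NS2 and 149, 151 and 144 CPM in EP300 KD2 (-1.33 ± 0.03 SE, adjusted p = 6.59e-17), and PPL, a cytolinker, 451, 473 and 445 CPM in NS2 and 165, 172 and 156 CPM in EP300 KD2 (-1.47 ± 0.03 SE, adjusted p = 2.86e-17). Neither gene's groups overlapped. PKP4 rose by 0.18. Tight-junction and polarity genes gave 20 lower and 0 higher of 22 (median -0.57), beside a median of -0.55 with hairpin 1. CLDN1, a barrier claudin, measured 219.8, 215 and 216 CPM in NS2 and 49.2, 46 and 50.5 CPM in EP300 KD2 (-2.16 ± 0.04 SE, adjusted p = 6.19e-19). TJP3, a scaffold of the junction, measured 27.3, 26.9 and 25.7 CPM in NS2 and 3.43, 3.6 and 3.4 CPM in EP300 KD2, and it fell by more with hairpin 2 than with hairpin 1 (-2.94 and -1.56, adjusted p = 1.88e-09 for the difference). CLDN8 dropped to near absence at 11.5, 10.8 and 10.8 CPM in NS2 and 0.809, 0.549 and 0.864 CPM in EP300 KD2. Adherens-junction cadherins moved in both directions. CDH1, E-cadherin, measured 373, 381 and 378 CPM in NS2 and 181, 183 and 179.7 CPM in EP300 KD2 (-1.06 ± 0.02 SE, adjusted p = 7.59e-18), and CDH2, N-cadherin, 15.8, 15.7 and 15.8 CPM in NS2 and 44.2, 46.8 and 50 CPM in EP300 KD2 (1.57 ± 0.04 SE, adjusted p = 4.9e-16), each without overlap. Over the 14 cadherins, catenins and nectins 7 rose and 7 fell.

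Transcription factors of epithelial identity were nearly all lower, 19 of 20 with 0 higher and a median of -0.98. The ETS factor ELF3 measured 161, 155 and 157 CPM in NS2 and 40.6, 37.9 and 38.1 CPM in EP300 KD2 (-2.02 ± 0.04 SE, adjusted p = 9.02e-19), and EHF, of the same family, 207, 196 and 212 CPM in NS2 and 83.2, 83.9 and 81.9 CPM in EP300 KD2 (-1.30 ± 0.04 SE, adjusted p = 3.35e-15). TP63, the basal lineage factor, measured 72.7, 75.9 and 71.7 CPM in NS2 and 32, 33 and 31.6 CPM in EP300 KD2 (-1.19 ± 0.04 SE, adjusted p = 2.88e-14), and GRHL1, of the grainyhead family, 28.7, 26.2 and 28.6 CPM in NS2 and 12.1, 12.1 and 12.4 CPM in EP300 KD2 (-1.19 ± 0.05 SE, adjusted p = 4.44e-13). KLF4 fell by 1.27 on the log2 scale. All these groups were separated by library. Factors linked with mesenchymal states did not move as one: 8 of 15 rose and 4 fell (median 0.15). ZEB1, a repressor of epithelial genes, measured 2.15, 2.23 and 2.09 CPM in NS2 and 7.68, 7.34 and 7.75 CPM in EP300 KD2 (1.81 ± 0.11 SE, adjusted p = 7.05e-11). SNAI1 rose from 9.58 to 15.2 CPM, while SOX9, FOXC1 and FOXQ1 fell by 0.69, 0.77 and 1.00. TWIST1 was not called, at 11.2, 10.4 and 10.9 CPM in NS2 and 12.4, 11.9 and 11.7 CPM in EP300 KD2 (0.15 ± 0.07 SE, adjusted p = 0.0599), and SNAI2 measured 53.7, 61.3 and 55.5 CPM in NS2 and 50.8, 52.1 and 51.7 CPM in EP300 KD2 (-0.14 ± 0.04 SE, adjusted p = 0.00732).

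**Figure D2:**
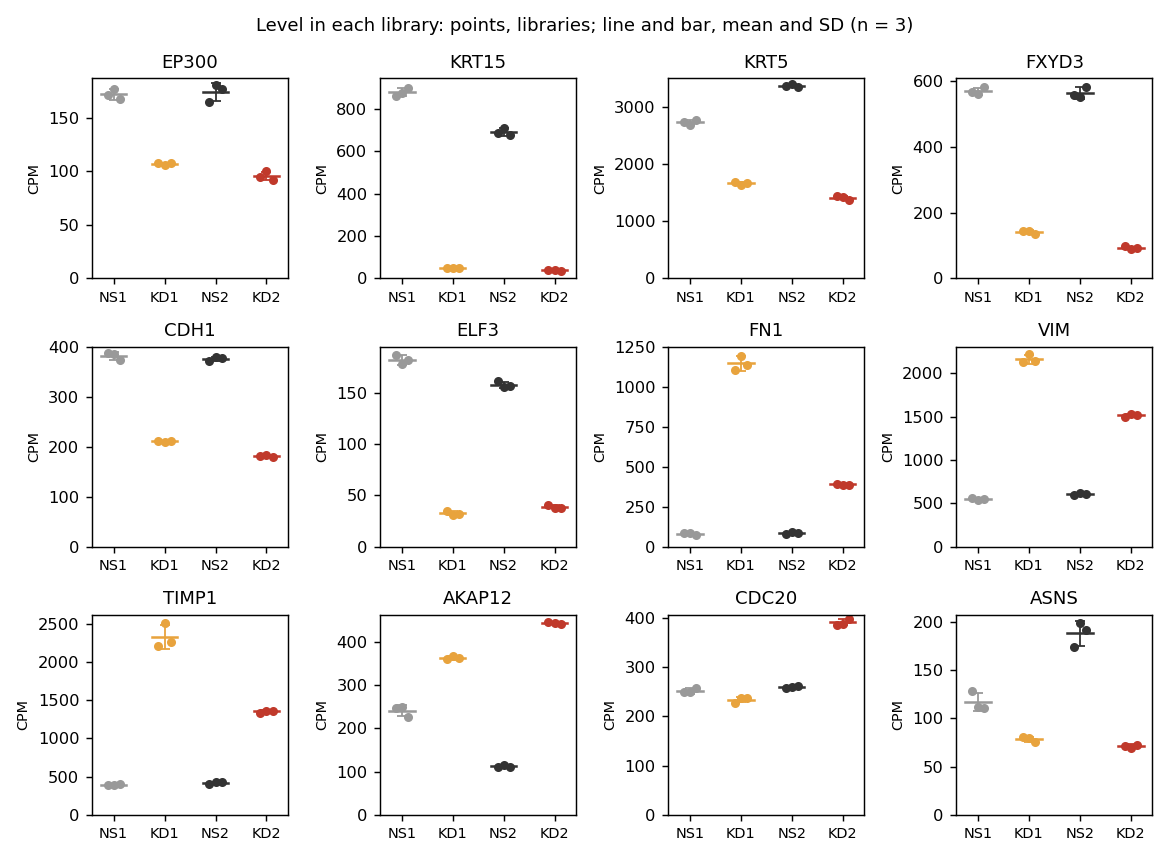
Level in CPM (y axis, starting at 0) of 12 genes in each of the 12 libraries, by group on the x axis; points are libraries, lines the mean and bars the SD of 3 libraries. In EP300 KD2 libraries KRT15 lay at 36.2 to 38.6 CPM against 677 to 710.2 CPM in NS2, and CDC20 at 386 to 397 CPM against 257 to 262 CPM.

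Secreted and glandular products were among the largest losses. Of 10 mucins and secretory products 9 fell and 0 rose (median -3.07, and -3.51 with hairpin 1). AGR2, a disulfide isomerase needed for mucin folding, measured 49.8, 45.7 and 47.2 CPM in NS2 and 2.38, 2.17 and 2.59 CPM in EP300 KD2 (-4.32 ± 0.08 SE, adjusted p = 5.54e-19). TCN1, a vitamin B12 binding protein, measured 54.9, 53.9 and 55.1 CPM in NS2 and 2.95, 3.32 and 2.99 CPM in EP300 KD2 (-4.14 ± 0.06 SE, adjusted p = 1.36e-20). GCNT3, which branches mucin O-glycans, measured 21.3, 23.4 and 21.6 CPM in NS2 and 1.36, 1.26 and 0.895 CPM in EP300 KD2 (-4.21 ± 0.09 SE, adjusted p = 1.18e-17). For each of these genes all 3 knockdown libraries lay far below every control. MUC1, the transmembrane mucin, measured 143, 144 and 148 CPM in NS2 and 34.6, 31.2 and 32.2 CPM in EP300 KD2 (-2.15 ± 0.04 SE, adjusted p = 4.57e-18), and SLPI, a protease inhibitor, 88.4, 88.7 and 89.9 CPM in NS2 and 20.7, 19.5 and 21.7 CPM in EP300 KD2 (-2.11 ± 0.04 SE, adjusted p = 2.92e-19). AZGP1, a zinc-binding glycoprotein, fell from 12.6 to 0.644 CPM. Against NS1 the log2 changes of TCN1 and GCNT3 were -4.77 and -4.95.

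The kallikrein-related peptidases, serine proteases that detach cells of the cornified layer, gave 5 lower and 0 higher of 7 (median -4.17). KLK5 measured 18.3, 17.4 and 17.4 CPM in NS2 and 0.666, 0.495 and 0.71 CPM in EP300 KD2 and KLK7 15.1, 15.8 and 14.8 CPM in NS2 and 0.69, 0.934 and 0.926 CPM in EP300 KD2. Here hairpin 2 did less than hairpin 1: the log2 changes were -4.82 and -6.50 for KLK5 and -4.17 and -6.17 for KLK7 (adjusted p = 6.46e-06 and 1.09e-06 for the differences). Against NS1 the changes with hairpin 2 were -5.75 and -4.91. Of 17 cornified-envelope genes 12 fell and 0 rose. SCEL, a precursor of the envelope, went from 42.0 to 11 CPM and CSTA, a cysteine protease inhibitor, from 40.3 to 21.7 CPM. The S100 calcium-binding proteins also fell, 9 of 12 with 1 higher (median -0.37; 8 and 3 with NS1 as the control), led by S100P at 447, 422 and 464 CPM in NS2 and 87.1, 76.3 and 79.8 CPM in EP300 KD2 (-2.45 ± 0.06 SE, adjusted p = 3.7e-17). With hairpin 1, 6 of the 12 rose and 2 fell, and the difference was called lower with hairpin 2 for 12 of 12.

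FXYD3, a regulator of the sodium pump, had one of the larger losses among abundant genes, at 558, 552 and 584 CPM in NS2 and 97.1, 89.9 and 92.1 CPM in EP300 KD2 (-2.60 ± 0.03 SE, adjusted p = 8.97e-21). RARRES1, a retinoid-responsive membrane protein, measured 133, 122 and 139 CPM in NS2 and 17.5, 15.1 and 18.2 CPM in EP300 KD2 (-2.96 ± 0.06 SE, adjusted p = 2.51e-18). LXN, a carboxypeptidase inhibitor, measured 167, 174 and 165 CPM in NS2 and 24.6, 24.6 and 25.5 CPM in EP300 KD2, and SYT8, a synaptotagmin, 171, 166 and 180.1 CPM in NS2 and 29.5, 27.2 and 21.9 CPM in EP300 KD2. The groups were far apart in all 4. TIMP3, an inhibitor of matrix metalloproteases, measured 151, 159.5 and 153 CPM in NS2 and 32.4, 31.1 and 31.9 CPM in EP300 KD2 (-2.28 ± 0.03 SE, adjusted p = 2.9e-20), while TIMP1, a relative with overlapping targets, rose at 404, 424 and 427 CPM in NS2 and 1339, 1354 and 1365 CPM in EP300 KD2 (1.69 ± 0.04 SE, adjusted p = 9.25e-18). PPARGC1A, a coactivator of mitochondrial genes, fell from 14.1 to 0.819 CPM. Respiratory-chain genes gave 27 lower and 0 higher of 32, with a median of only -0.18, and a link with PPARGC1A was not tested. Cytosolic ribosomal proteins gave 48 lower and 0 higher of 60 (median -0.14). Under library totals 22 respiratory-chain genes (median -0.11) and 32 ribosomal proteins (median -0.07) were lower.

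Among the larger gains were genes of the matrix and the cytoskeleton. FN1, fibronectin, measured 80.9, 90.8 and 87.8 CPM in NS2 and 393, 389 and 387 CPM in EP300 KD2 (2.17 ± 0.04 SE, adjusted p = 1.77e-18). It rose much less than with hairpin 1 (3.84, adjusted p = 7.4e-14 for the difference). FSTL1, a secreted glycoprotein, measured 28.2, 28.5 and 29 CPM in NS2 and 116, 114 and 122 CPM in EP300 KD2 (2.04 ± 0.03 SE, adjusted p = 2.92e-19). Its log2 change with hairpin 1 was 1.98, a difference of 0.06 ± 0.05 SE that was not called (adjusted p = 0.286). FBN2, a fibrillin, measured 23.4, 22.1 and 23.2 CPM in NS2 and 82.6, 87.9 and 85.6 CPM in EP300 KD2 (1.90 ± 0.04 SE, adjusted p = 1.14e-17), and VIM, vimentin, 599.5, 624 and 612 CPM in NS2 and 1494, 1529 and 1518 CPM in EP300 KD2 (1.31 ± 0.02 SE, adjusted p = 6.72e-19). CNTNAP2, a neuronal cell-surface protein, measured 14.8, 14.4 and 15.2 CPM in NS2 and 86.3, 81.2 and 86.9 CPM in EP300 KD2 (2.52 ± 0.05 SE, adjusted p = 7.34e-19). HMGA2, a chromatin protein of fetal tissue, measured 52.6, 57.9 and 52.7 CPM in NS2 and 133, 134 and 133 CPM in EP300 KD2 (1.29 ± 0.04 SE, adjusted p = 4.48e-16). None of these groups overlapped.

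AKAP12, a scaffold for protein kinase A, measured 111, 116 and 111 CPM in NS2 and 446, 444 and 441 CPM in EP300 KD2 (1.98 ± 0.03 SE, adjusted p = 2.48e-19). Its rise was larger with hairpin 2 than with hairpin 1 (0.60, adjusted p = 2.86e-14 for the difference), but the controls differed as well: NS1 libraries held 246, 249.9 and 226 CPM, and against them the rise was 0.88. Among called genes at 10 CPM or more with no overlap, MIF had the largest gain by fold, and it rested on 1 library. It measured 1.3, 1.29 and 1.35 CPM in NS2 and 1.4, 44 and 1.36 CPM in EP300 KD2, and without EP300 KD2 replicate 2 its log2 change was 0.07 (adjusted p = 0.807, edgeR).

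For most matrix genes the change was lower with hairpin 2 than with hairpin 1. Of 23 matrix glycoproteins and proteoglycans 12 rose and 8 fell (median 0.56), against 16 and 4 with hairpin 1 (median 1.12), and the difference was called lower for 17. With NS1 as the control 12 rose and 10 fell with hairpin 2 (median 0.21). Of 25 collagens and cross-linking enzymes 9 rose and 14 fell (median -0.22, and -0.10 with NS1 as the control), against 19 and 2 with hairpin 1 (median 0.38), where 32.6% of all genes tested were called higher and 32.3% lower. The difference was called lower with hairpin 2 for 20 of these 25. COL27A1, a fibrillar collagen, measured 12.5, 12.9 and 13.8 CPM in NS2 and 62.6, 61.5 and 60.5 CPM in EP300 KD2 and was an exception, with a larger rise than with hairpin 1 (2.23 and 1.45, adjusted p = 7.07e-09 for the difference). COL6A3 measured 9.61, 9.09 and 8.85 CPM in NS2 and 23.6, 20.5 and 23.5 CPM in EP300 KD2; it rose by 1.29 with hairpin 2 and by 4.19 with hairpin 1. ITGA5, the fibronectin receptor subunit, measured 216, 227 and 226 CPM in NS2 and 309.6, 317 and 310.2 CPM in EP300 KD2 and rose by 0.48 and 2.04. Among 11 integrins outside the hemidesmosome 4 rose and 6 fell, and ITGB6, whose integrin activates latent TGF-beta, fell from 307 to 160 CPM.

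The genes of DNA replication and mitosis rose together by small amounts. Of 45 S-phase genes 42 rose and 0 fell, with a median of 0.43, and of 67 G2 and mitosis genes 64 rose and 1 fell, with a median of 0.41. RRM2, a subunit of ribonucleotide reductase, measured 203, 197 and 201 CPM in NS2 and 329, 332 and 345 CPM in EP300 KD2 (0.74 ± 0.02 SE, adjusted p = 4.05e-15), and MCM4, of the replicative helicase, 229, 229 and 231 CPM in NS2 and 326, 333 and 344 CPM in EP300 KD2 (0.54 ± 0.02 SE, adjusted p = 6.31e-13). CDC20, the activator of the anaphase-promoting complex, measured 257, 259 and 262 CPM in NS2 and 386, 388 and 397 CPM in EP300 KD2 (0.59 ± 0.02 SE, adjusted p = 1.31e-13), and CCNF, cyclin F, 58.4, 57.3 and 57 CPM in NS2 and 84.6, 84.9 and 85.3 CPM in EP300 KD2 (0.56 ± 0.03 SE, adjusted p = 1.35e-12). In each the groups were apart by more than their spread. The member that fell was CDC25B, a CDK-activating phosphatase, at 474, 503 and 491 CPM in NS2 and 372, 379 and 367 CPM in EP300 KD2. Regulators moved likewise: 13 of 16 E2F, RB and MuvB genes rose and 0 fell, and E2F8, an atypical E2F, measured 8.72, 9.09 and 10.4 CPM in NS2 and 17.4, 19.2 and 18.6 CPM in EP300 KD2 (0.97 ± 0.08 SE, adjusted p = 2.52e-09). Of 13 G1 cyclins, CDKs and inhibitors 9 rose and 3 fell, and of 27 homologous recombination and Fanconi genes 19 rose and 3 fell, with the helicase BLM at 33.1, 32.1 and 31.2 CPM in NS2 and 50.9, 51.6 and 53.5 CPM in EP300 KD2. Counts of this kind give relative RNA levels, and the number of cells in each phase was not measured.

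These genes also set the hairpins apart. With hairpin 1, 42 S-phase genes fell and 1 rose (median -0.62), and 14 G2 and mitosis genes rose and 36 fell (median -0.10). The difference was called higher with hairpin 2 for 44 of 45 and 65 of 67. The controls (NS2 against NS1) differed by a median log2 of -0.03 for the S-phase list and 0.07 for the G2 and mitosis list. The difference was 0.04 for CDC20 and -0.03 for MCM4, but larger for other genes printed. With hairpin 2 CDC25B changed by -0.39 against NS2 and -0.12 against NS1, and E2F8 by 0.97 and 0.73. BUB1 rose by 0.74 against NS1, more than against NS2. With NS1 as the control of hairpin 2 the counts were 43 and 64.

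The mitotic promoters shown above belong to genes of this pattern. RefSeq windows were found for 57 of the 67 mitotic genes, and 28 of them (49.1%) held TTTGAA on either strand, against 8.78% of 9582 tested genes and 13.6% of all 27305 windows in the table. CCAAT stood in 41 (71.9%), against 35.2% of tested genes and 33% of all. Of 40 S-phase windows 1 held TTTGAA, 25 held CCAAT (62.5%) and 14 held the E2F match TTNGCGC (35.0%, against 10.7% of tested genes and 6.73% of all). Such elements are textbook features of these promoters, and the shares describe the lists and no more. Within the mitotic list, the 28 genes with TTTGAA had a median log2 change of 0.38 and the 29 without it 0.48. BUB1, at 123, 119 and 119 CPM in NS2 and 177, 182 and 182 CPM in EP300 KD2, rose by 0.59 and had CCAAT but no TTTGAA in its window, and DLGAP5, at 132, 134 and 125 CPM in NS2 and 201, 203 and 204 CPM in EP300 KD2, rose by 0.64. For 6896 of 9185 windows that could be compared (75.1%), the bases just after the window were found near the start of a GENCODE transcript of that gene.

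Base composition differed between losses and gains. The 458 genes lower by at least 2-fold that had a window held a median of 9 CpGs and 60.0% GC, against 21 CpGs and 64.8% GC over all tested genes with a window, and 19 CpGs and 65.2% GC for the 275 higher by at least 2-fold. Of genes with 0 to 9 CpGs 13.9% fell at least 2-fold and 4.83% rose as far, and of genes with 20 or more 2.74% fell and 2.55% rose. TATAAA stood in 14.6% of the windows of the losses, 8.0% of the gains, 5.94% of tested genes and 11.1% of all windows in the table. The AP-1 match TGANTCA stood in 9.17% of the losses, 7.64% of the gains, 4.23% of tested genes and 6.6% of all. The GC box GGGCGG, which overlaps CpG counts by construction, stood in 47.6%, 66.9%, 66.0% and 42.3%. Large changes in either direction were commoner among genes of low level, and the part of level in these shares was not tested. AGR2, TCN1 and GCNT3, printed above, stand at the CpG-poor end of the losses. Of the 12 genes named for the largest losses at 10 CPM or more, 10 had a window, with 1 to 33 CpGs and a median of 8.5, and KLK6 had 12, KLK7 15 and VILL 11. EPB41L4A, a FERM-domain protein of similar loss, had 27 CpGs and measured 27.1, 28.9 and 27.7 CPM in NS2 and 0.952, 1.32 and 1.14 CPM in EP300 KD2 (log2 change -4.62, and -5.44 against NS1).

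**Figure D3:**
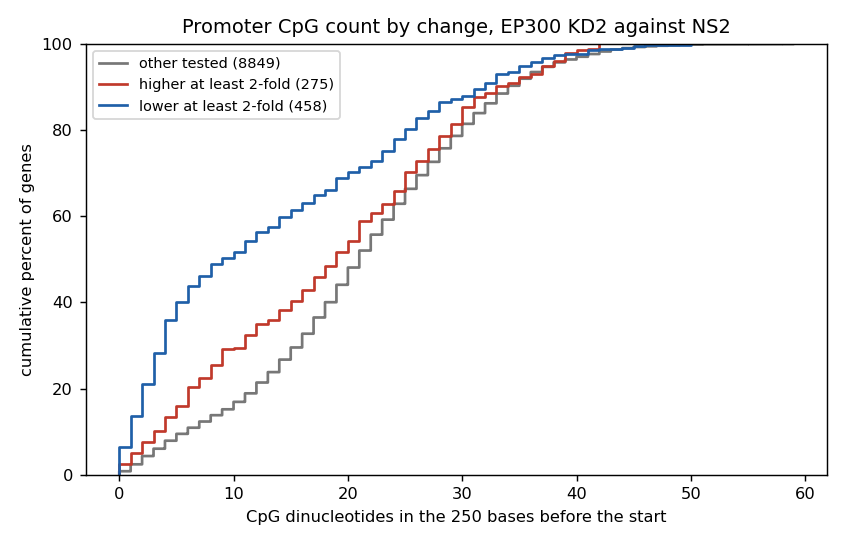
Cumulative percent of genes (y axis) by the number of CpG dinucleotides in the 250 bases before the RefSeq start (x axis), for genes lower by at least 2-fold with hairpin 2 (blue, 458), higher by at least 2-fold (red, 275) and all other tested genes with a window (grey). The blue curve rises earliest, with a median of 9 CpGs for the losses and 19 for the gains.

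Genes of growth factor signalling moved in both directions. Of 13 EGF receptor family members and ligands 7 fell and 2 rose (median -0.25). HBEGF, a ligand of the receptor, measured 76, 75.3 and 75.6 CPM in NS2 and 20.2, 18.5 and 19.3 CPM in EP300 KD2 (-1.97 ± 0.06 SE, adjusted p = 2e-15), and the feedback inhibitor ERRFI1 fell from 823 to 426 CPM. EGFR itself fell by 0.25 against NS2 but had a log2 change of 0.03 against NS1, where the list's median was also 0.03, with 5 members higher and 6 lower. Of 13 AXL, MET, PDGF and FGF receptor genes 5 rose and 4 fell (median -0.06), where all genes tested gave 27.9% higher and 29.9% lower. Of 14 feedback genes of the MAPK cascade 9 fell and 1 rose (median -0.20). DUSP6, an ERK phosphatase, measured 444, 455 and 445 CPM in NS2 and 319, 330.4 and 324 CPM in EP300 KD2. It fell by 0.46 with hairpin 2 and rose by 0.63 with hairpin 1 (adjusted p = 1.83e-14 for the difference). Against NS1, however, its log2 change with hairpin 2 was -0.05 and was not called (adjusted p = 0.0702, edgeR). With NS1 as the control 5 of the 14 fell and 3 rose.

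In the TGF-beta and activin pathway 9 genes rose and 10 fell of 21, and the ligands went opposite ways. TGFB1 measured 27, 28.4 and 28.1 CPM in NS2 and 63.9, 67.6 and 63.2 CPM in EP300 KD2 (1.22 ± 0.04 SE, adjusted p = 1.94e-14) and TGFB2 50.9, 49.7 and 49.9 CPM in NS2 and 11.6, 11.3 and 13.5 CPM in EP300 KD2 (-2.06 ± 0.05 SE, adjusted p = 1.79e-16). Each moved the same way with hairpin 1. In the Notch pathway 10 of 18 fell and 6 rose. The ligand JAG1 measured 191, 193 and 196 CPM in NS2 and 91.6, 95.3 and 94 CPM in EP300 KD2 (-1.05 ± 0.03 SE, adjusted p = 3.26e-16). The receptor NOTCH3 measured 25.9, 24.3 and 24.5 CPM in NS2 and 14.8, 15.7 and 15.1 CPM in EP300 KD2, lower with hairpin 2 and higher with hairpin 1 (-0.71 and 0.75, adjusted p = 4.46e-12 for the difference). Guidance cues of the semaphorin, plexin, netrin and slit families gave 9 higher and 16 lower of 30, and the netrin receptor UNC5B fell to a small part of its level, at 79.2, 76.5 and 79.3 CPM in NS2 and 11.1, 10.9 and 10.6 CPM in EP300 KD2 (-2.85 ± 0.04 SE, adjusted p = 5.59e-20). Eph receptors and ephrins gave 2 higher and 10 lower of 13. Nuclear receptors gave 1 higher and 18 lower of 25 (median -0.37), with the thyroid hormone receptor THRB at 38.5, 39.9 and 39 CPM in NS2 and 13.8, 14.3 and 14.9 CPM in EP300 KD2 (-1.45 ± 0.04 SE, adjusted p = 3.35e-16). IGFBP3, which binds insulin-like growth factors, measured 26, 24.2 and 27.2 CPM in NS2 and 3.69, 3.49 and 3.27 CPM in EP300 KD2 and differed widely between controls too, at 71.7, 73.7 and 82.6 CPM in NS1. Against NS2 its log2 change was -2.88 and against NS1 -4.44.

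Inflammatory genes moved in both directions. Over all genes tested 27.9% were called higher and 29.9% lower with hairpin 2, and 32.6% and 32.3% with hairpin 1. The difference was called lower with hairpin 2 for 29.2%. Of 15 genes of IL6, LIF and gp130 signalling 7 rose and 3 fell with hairpin 2, and 12 and 0 with hairpin 1. The difference was called lower with hairpin 2 for 11. IL6 measured 2.88, 2.02 and 2.09 CPM in NS2 and 8.28, 7.61 and 6.88 CPM in EP300 KD2 (1.71 ± 0.12 SE, adjusted p = 3.29e-10), low in all libraries yet apart. Of 19 NF-kB subunits and feedback genes 9 rose and 3 fell with hairpin 2, and 13 and 2 with hairpin 1. The difference was called lower with hairpin 2 for 12. With NS1 as the control 10 rose and 6 fell. IL1B measured 13.5, 14.8 and 15.8 CPM in NS2 and 25.2, 24 and 26.2 CPM in EP300 KD2, with a rise of 0.77 with hairpin 2 and 3.29 with hairpin 1, and of 1.72 with hairpin 2 against NS1. Interferon-stimulated genes gave 10 higher and 11 lower of 28, where 27.9% of all genes tested were called higher and 29.9% lower. With NS1 as the control 5 were higher and 11 lower. OAS1, an RNA sensor, measured 17.5, 17.4 and 17.2 CPM in NS2 and 4.92, 5.63 and 4.81 CPM in EP300 KD2 (-1.76 ± 0.06 SE, adjusted p = 1.47e-14).

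Genes of amino acid supply and antioxidant defence fell with hairpin 2. A list of 23 genes held targets of ATF4, the factor of the amino acid response, and genes of amino acid supply. Of these 22 fell and 1 rose (median -0.79, and -0.46 against NS1). With hairpin 1, 19 fell and 3 rose (median -0.34), and the difference was called lower with hairpin 2 for 18. ASNS, asparagine synthetase, measured 174, 199 and 192 CPM in NS2 and 71.8, 69.5 and 72.9 CPM in EP300 KD2 (-1.40 ± 0.05 SE, adjusted p = 2.1e-14). Its control level differed, and against NS1 the log2 change was -0.71. PSAT1, of serine synthesis, measured 557, 591 and 569.9 CPM in NS2 and 285, 283 and 278 CPM in EP300 KD2 (-1.02 ± 0.03 SE, adjusted p = 5.11e-15), and SLC7A5, a transporter of large neutral amino acids, 1563, 1613 and 1627 CPM in NS2 and 836, 846 and 818 CPM in EP300 KD2 (-0.94 ± 0.03 SE, adjusted p = 6.51e-15). SLC7A11, the cystine transporter, measured 266, 266 and 254 CPM in NS2 and 104, 100.0 and 96.2 CPM in EP300 KD2. Of 24 NRF2 targets 20 fell and 3 rose (median -0.44), and with hairpin 1, 13 fell and 8 rose (median -0.10). The difference was called lower with hairpin 2 for 17. The aldo-keto reductases AKR1C2 and AKR1C3 fell by 1.47 and 1.23, and with hairpin 1 their log2 changes were -0.20 and 0.08. These genes have near-identical copies, among which the counting may have shared reads.

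Fatty acid genes gave 11 lower and 2 higher of 16, and 9 and 5 with NS1 as the control. ACSL1, which activates long-chain fatty acids, measured 785, 779 and 789.6 CPM in NS2 and 409.6, 405 and 416 CPM in EP300 KD2 (-0.94 ± 0.03 SE, adjusted p = 7.33e-16), and ACSS2, which makes acetyl-CoA from acetate, 299, 319.8 and 318 CPM in NS2 and 167, 164 and 167 CPM in EP300 KD2 (-0.91 ± 0.03 SE, adjusted p = 1.85e-15). With hairpin 1 their log2 changes were -0.09 and 0.15 (adjusted p = 1.82e-12 and 1.52e-13 for the differences). Of 20 genes of the unfolded protein response 5 rose and 8 fell (median -0.02), where 27.9% of all genes tested were called higher and 29.9% lower. With hairpin 1, 17 rose and 1 fell, where the shares were 32.6% and 32.3%. The difference was called lower with hairpin 2 for 17, and for 29.2% of all genes tested. Here the controls differed, NS2 lying above NS1 by a median of 0.15, and with NS1 as the control the balance for hairpin 2 turned to 9 higher and 4 lower. XBP1, a transcription factor of that response, measured 161, 164 and 163 CPM in NS2 and 91.2, 92.8 and 89.9 CPM in EP300 KD2, and HERPUD1, of protein degradation at the endoplasmic reticulum, 53.1, 53.8 and 51.6 CPM in NS2 and 30.7, 29.8 and 30.1 CPM in EP300 KD2. Of 32 glycolysis and hypoxia genes 6 rose and 16 fell with hairpin 2, and 19 and 7 with hairpin 1. The median of -0.06 with hairpin 2 turned to 0.01, with 11 higher and 11 lower, under library totals. ENO2, the neuronal enolase, rose nonetheless, at 2.43, 2.26 and 2.24 CPM in NS2 and 9.42, 9.53 and 9.17 CPM in EP300 KD2 (2.02 ± 0.08 SE, adjusted p = 8.9e-14).

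**Figure D4:**
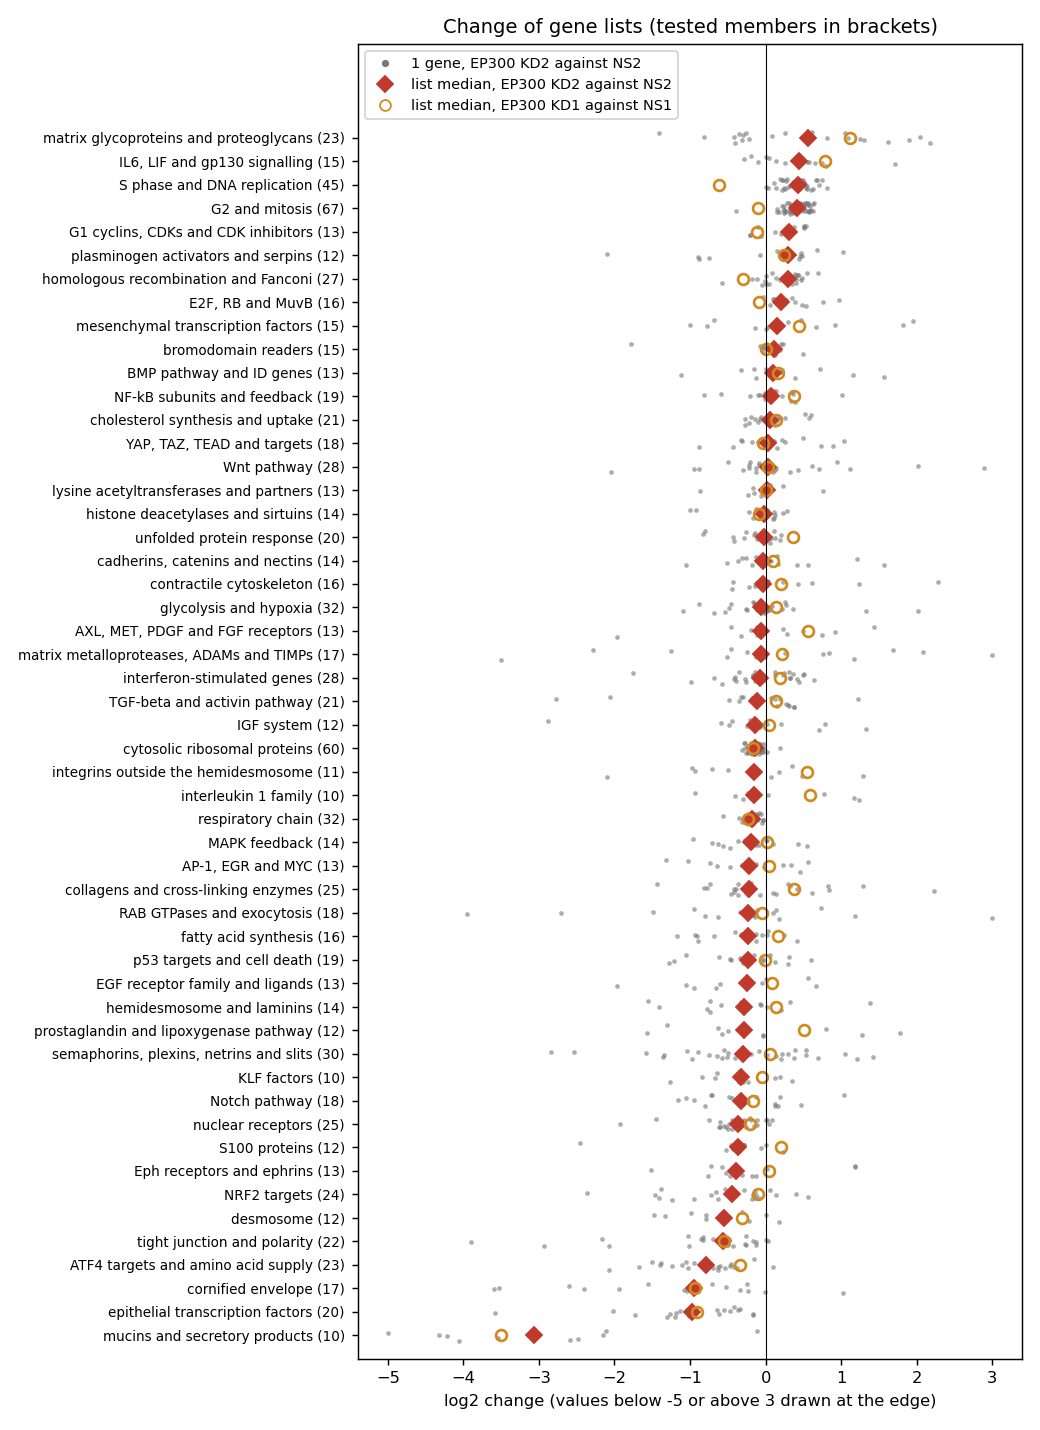
Log2 change (x axis) of the members of gene lists with at least 10 tested genes (y axis, list and number tested); grey points are genes with hairpin 2, red diamonds their median and open circles the median with hairpin 1. The S-phase list has a median of 0.43 with hairpin 2 and -0.62 with hairpin 1, whereas the tight-junction medians are -0.57 and -0.55.

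Across genes the log2 changes of the 2 hairpins had a Pearson r of 0.70, which is a description, since genes are not independent replicates. The comparisons share no library. Of the 396 genes at least 2-fold higher with hairpin 2, 276 (69.7%) were so with hairpin 1, which is 35.2% of the 785 of hairpin 1. Of the 689 at least 2-fold lower, 397 (57.6%) were so with hairpin 1, or 68.2% of its 582. Over all calls 2051 genes were higher with both and 2329 lower with both. A further 762 were higher with hairpin 2 and lower with hairpin 1, and 738 the reverse, and for all 1500 the difference itself was called. In all, 3915 genes were called lower and 2903 higher with hairpin 2 than with hairpin 1.

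The opposite calls had members of known pathways on either side. MCM3, of the replicative helicase, measured 225, 230.1 and 236 CPM in NS2 and 307, 306 and 322 CPM in EP300 KD2, higher with hairpin 2 and lower with hairpin 1 (0.44 and -1.11). EXO1, an exonuclease of mismatch repair, measured 27.3, 28 and 27.4 CPM in NS2 and 41.2, 38.8 and 41.2 CPM in EP300 KD2 (0.55 and -0.98). On the other side ALOX15B, a lipoxygenase, measured 16, 18.2 and 17.9 CPM in NS2 and 6.35, 5.11 and 6.02 CPM in EP300 KD2, with log2 changes of -1.57 and 1.34. AKR1C1 measured 198, 181 and 197 CPM in NS2 and 103, 93.8 and 102 CPM in EP300 KD2 (-0.95 and 1.17), and SERPINA3, a secreted protease inhibitor, 2291, 2373 and 2388 CPM in NS2 and 1294, 1282 and 1251 CPM in EP300 KD2 (-0.88 and 0.17). In these 5 genes the knockdown libraries of hairpin 2 did not overlap NS2. CCN2, a matricellular target of YAP, measured 7.8, 9.39 and 8.02 CPM in NS2 and 13.3, 14.1 and 14.8 CPM in EP300 KD2 and rose against NS2, but NS1 libraries held 18.6, 18.2 and 18.6 CPM and against them it fell by 0.39.

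**Figure D5:**
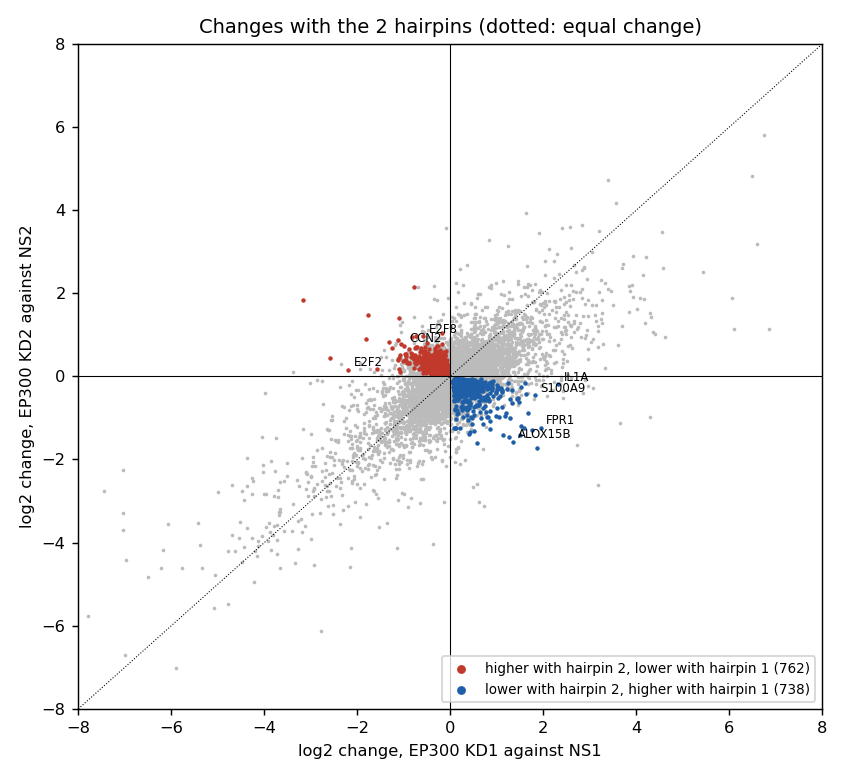
Log2 change with hairpin 1 (x axis, EP300 KD1 against NS1) and with hairpin 2 (y axis, EP300 KD2 against NS2), 1 point per gene, with the line of equal change dotted. Red points (762) were called higher with hairpin 2 and lower with hairpin 1, blue points (738) the reverse, and the named genes are examples of these.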

How the data were processed

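Per the labels' protocols, Trizol RNA was made into libraries with a stranded TruSeq mRNA kit. Alignment to hg38 used HISAT2 2.1.0 and counting used featureCounts, per the submitters' processing notes. Its version, its annotation and its handling of strand and multi-mapped reads were not stated in what was used here. What the authors deposited are raw counts. Symbols came from RefSeq for 28134 rows and GENCODE for 486, and 474 rows with 0.313% of counts had none. Symbols with several rows hold 0.934% of counts and were left out of list counts.

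Counts were fitted with edgeR 4.0.16 (R 4.3.3): filterByExpr defaults, TMM, a quasi-likelihood model of 12 libraries (1 coefficient for each group), Benjamini-Hochberg adjustment over 13424 genes and a threshold of 0.05. The same fit gave hairpin 1 and the difference (EP300 KD2 against NS2 minus EP300 KD1 against NS1). SE came from the test statistic, and levels are TMM-scaled CPM. In every replicate pair the counts differed beyond sampling noise, with chi-square values of 1.86 to 4.54 per degree of freedom. The fit was also run on simulated counts for this comparison (13424 genes, of which 200 were changed). It recovered 100.0%, 84%, 64% and 32% of genes changed 2-, 1.5-, 1.25- and 1.1-fold, and called 0.0378% of unchanged genes. Far more genes were called in the data than were changed in the simulation, and the cut-off depends on that share. These rates therefore do not carry over to the data. Alternatives were other scalings and filters, DESeq2 1.42.0, limma-voom (limma 3.58.1), NS1 or both controls, a replicate block and leaving out libraries. Lists with members of several rows were added after the data were seen.

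The comparison, the lists and the rule for named genes were chosen with earlier results of these data known. Named by rule were EP300, CREBBP, the most changed called genes without overlap (12 a direction at 10 CPM or more, 8 at 100 CPM or more), 8 opposite calls a direction and the leading members of each list. A few genes that the rule or a marker list holds are not reported here. TP63, GRHL1, TWIST1, SNAI2, CD14 and PECAM1 were chosen as textbook or marker genes with their values known. Promoter windows and their coordinates are RefSeq's on GRCh38.p14, found for 9582 of 12310 tested symbols with 1 row.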

Additional observations from a re-analysis of the deposited data

Results flagged for a closer look

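The effects of the 2 hairpins differed by a test of the difference itself (edgeR, adjusted p under 0.05) in 2903 genes that were higher and 3915 that were lower with hairpin 2. Each hairpin was compared with its own control, so the difference of log2 changes also carries the difference between NS1 and NS2. Genes called in opposite directions, with the largest differences, were as follows.

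Higher with hairpin 2 and lower with hairpin 1 were the E2F factor E2F2, with a difference of 2.36, MNS1, a protein of cilia and meiotic nuclei, with 1.93, and the xylosyltransferase XXYLT1 with 1.75. CCN2 also differed by 1.75. E2F8, MCM10 and MCM3 each differed by 1.55, and EXO1 by 1.53. Of these 8 genes, E2F2, XXYLT1 and CCN2 lost their rise with hairpin 2 when NS1 was the control.

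Lower with hairpin 2 and higher with hairpin 1 were FPR1, the formyl peptide receptor, with a difference of -3.19, ALOX15B with -2.91 and TREM1, an activating receptor of myeloid cells, with -2.82. IL1A, an interleukin 1 ligand, differed by -2.51, S100A9 by -2.28, AKR1C1 by -2.12, the lipoxygenase ALOXE3 by -2.11 and LSP1, an actin-binding protein, by -2.09. With NS1 as the control IL1A was higher with hairpin 2 (log2 change 1.05) and ALOXE3 was not called (0.10). Dixon's check for an outlying value was not applied to groups of 3 libraries.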

How the results depend on the processing

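The numbers of genes called, and called higher or lower, and the difference between hairpins stayed within 1.5 times of the reported counts under every alternative run. Among counts of large changes and of the prevailing direction of a list, the exceptions were the genes at least 2-fold higher, 396 as reported and 234 with a mean of at least 1 CPM, the simple keratins that fell, 4 and 2 under that filter, and the MAPK feedback genes that fell, 9 and 5 with NS1 as control. Leaving out 1 library moved none of these by over 1.5 times. Of 81 other list counts, those of the less frequent direction or of lists with none prevailing, 20 moved by over 1.5 times with NS1 as control, 13 under library totals, 8 with both controls pooled and 3 to 5 without 1 library, among them the unfolded protein response genes that rose, 5 and 3 without EP300 KD2 replicate 2. Of the log2 changes of named genes, 6068 values under alternatives kept direction and side of the threshold, 57 were weaker, 1 was stronger and 18 reversed. With NS1 as control the reversed values were E2F2 -0.19, XXYLT1 -0.00947, CCN2 -0.39, IL1A 1.05, ALOXE3 0.10, KAT7 0.0591, HDAC1 -0.0189, EGFR 0.0344, CDK6 0.0462, RAD50 0.00562, DNAJC3 0.0011, KLF16 -0.013, MET 0.0174 and MAP2 -1.27. With both controls pooled they were E2F2 -0.0136, IL1A 0.43 and MAP2 -0.33, and under library totals CREBBP 0.00597. List medians reversed for hemidesmosomes and laminins (0.00466) and the EGF receptor family (0.0344) with NS1 as control, and for glycolysis (0.0115) under library totals. Beyond the change of control or scaling the cause was not tested.

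Replicate numbers did not pair the samples: same-numbered EP300 KD2 and NS2 libraries had correlations of deviations of -0.0006, 0.022 and -0.027. A fit with the replicate block called 7645 genes, against 7762 without it. With 3 libraries a group and counts of 31582157 or more, depth limits mainly genes below 1 CPM, and the spread between separate cultures is unknown.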

Other observations

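Of 15 bromodomain readers, proteins that bind acetylated lysines, 8 rose and 1 fell with hairpin 2 (median log2 change 0.11). Among all genes tested 27.9% were called higher and 29.9% lower. With hairpin 1, 5 of the 15 rose and 5 fell (median 0.006). The 1 that fell with hairpin 2 was CECR2, by 1.78 on the log2 scale from a low level of 0.318 CPM to 0.0879 CPM. That call was lost when EP300 KD2 replicate 1 or 3 or any 1 NS2 replicate was left out. ATAD2, an E2F-linked chromatin protein, went from 127 to 179 CPM, a log2 change of 0.49 with hairpin 2 and -0.48 with hairpin 1. Of 13 lysine acetyltransferases and partners 2 rose and 4 fell, EP300 included, and of 14 histone deacetylases and sirtuins 4 rose and 5 fell. The shares over all genes tested were 27.9% higher and 29.9% lower, and these counts were not tested against them. Under library totals 5 rose and 3 fell of the acetyltransferase list and 6 and 3 of the deacetylase list. HDAC5 measured 13.4 CPM in NS2 and 7.05 CPM in EP300 KD2. Cholesterol synthesis and uptake gave 9 higher and 6 lower of 21, with IDI1 up from 144 to 218 CPM.

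By chromosome, 84 of 195 genes tested on chromosome 18 were called lower (43.1%), with 45 higher and a median log2 change of -0.08, against 29.9% lower over all genes tested. On chromosome 21, 37.7% were lower. Of 645 long non-coding RNAs 90 were called higher (13.95%) and 123 lower (19.07%), against 27.9% and 29.9% over all genes tested. Calls were also rarer at low level, with 12.9% higher and 14.4% lower among all genes below a mean of 1 CPM. The part of level in the shares of long non-coding RNAs was not tested.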
